A study of Homo sapiens with 26 samples.

Results

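The genes of the proteasome were followed in the input RNA of the human melanoma line SK-MEL-28, with and without salubrinal in the medium. Members were the rows of both input count files whose symbol begins with Psm, a letter from a to g and a number. They made up 50 of 55353 gene rows, after 4 names with -ps, which mark pseudogenes, had been left out. By their known roles, 8 encode alpha subunits of the core and 11 beta subunits, 9 belong to the base and 8 to the lid of the cap, 6 are activators or an inhibitor, and 7 are assembly factors. The last, Psmc3ip, is taken by the name alone: its product acts in meiotic recombination and is no part of the proteasome.

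The proteasome is the protease that degrades proteins marked with ubiquitin. Its core is a barrel of stacked rings, in which alpha subunits gate the entrance and beta subunits hold the cutting sites. The cap recognises ubiquitin and strips it off, and the ATPases of its base unfold the substrate. Salubrinal keeps the translation factor eIF2α phosphorylated, which switches on the integrated stress response. In many cell types proteasome genes are controlled together by the transcription factor NRF1 (NFE2L1), which is constantly made and degraded, and escapes degradation when proteasome capacity is short.

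Treated cells had been in salubrinal for 72 h, at a dose that the labels do not state, and both groups grew in RPMI medium with 10% serum. The series holds 26 samples, of which 2 are input RNA, 1 per treatment. The other 24 are gradient fractions (40S, 60S, 80S and polysome, 3 libraries per fraction and treatment), from 5 to 20% sucrose gradients of cells given cycloheximide (12 min, 100 µg/mL). The titles all name SK-MEL-28, while the cell-line field gives a differently numbered line for 25 of the 26 samples, the control input and every fraction library included. The titles were followed. The labels name no clone and do not say whether libraries came from separate cultures.

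With salubrinal 7.06% of all input counts fell on gene rows (10245548 counts), and without it 5.94% (12068784 counts). One row, CT010467.1, took 12.8% of these with salubrinal and 56.7% without, so levels are given as counts per 1000000 (CPM) after scaling by a trimmed mean of log ratios (TMM). All 6 stress response genes used to check the treatment label stood at least 2-fold higher with salubrinal. Of all rows with 50 counts or more over both inputs, 2.75% did. Of 12 pigment-cell markers 10 had 50 counts or more, with Mlana at 0 in both inputs and Tyrp1 at 0 and 5 counts. The summed level of the 12 was 1448 CPM with salubrinal and 2930 CPM without, of which Pmel alone gave 953 and 1928 CPM. Of the 10 measured markers 8 were at least 1.5-fold lower with salubrinal, beside 12.1% of all rows. The others were Tyr (107 and 111 CPM) and S100b (69.8 and 62.7 CPM). Immune, epithelial and endothelial markers summed to 6.20 CPM or less per list and library. Whether that difference in pigment-cell markers has a part in the proteasome values was not tested. The symbols of the input rows are written as for mouse genes. Some names, such as 0610010F05Rik and Psme2b, belong to the mouse annotation, so the rows differ from human ones by more than letter case. How reads of human cells came to be counted on such rows is not stated, and whether it affects the ratios was not tested. No source used here gives the reference behind the rows. Levels of different genes were therefore not compared with each other, and a row near 0 need not mean an unexpressed gene. In RNA from a whole culture, fewer cells of a kind and less RNA per cell cannot be told apart.

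Proteasome rows stood close together and slightly higher in the salubrinal input. Of the 50 rows, 46 had 50 counts or more over both inputs. Of these, 34 were above and 12 below an equal level, beside 5524 above and 5090 below among all 10614 rows with as many counts. The members' median log2 ratio of salubrinal over control was 0.16, against 0.023 for all 10614 rows. The median of all rows rose with depth, so the gap was smaller among deeper rows. With 200 counts or more it was 0.17 for 40 members and 0.052 for all rows. With 1000 counts or more it was 0.16 for 29 members and 0.084 for all rows. Of the 46, only Psme2b reached 1.5-fold higher (11.0% of all rows did) and only Psma7 1.5-fold lower (12.1% of all rows). None of the 46 was 2-fold higher or lower, where 2.75 and 3.80% of all rows were. Psmb10, with 15 and 24 counts, was below the minimum and had a log2 ratio of -1.25. There is 1 library per treatment, so no test was made, and intervals below are exact binomial ones at 95% that cover counting error only.

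Counting error alone was small for many rows. The interval lay wholly above 0 for 23 of the 46 members (25.1% of all rows) and wholly below 0 for 5 (23.0%). That share depends on depth, so it was also counted among rows with 200 counts or more. There it lay above 0 for 22 of 40 members, or 55.0%, beside 31.9% of all rows, and below 0 for 4 of 40, beside 25.7%. With 1000 counts or more it lay above 0 for 18 of 29 members and 1027 of 2302 rows, and below 0 for 4 members and 641 rows. The scaling sets where 0 lies. When counts were scaled by gene-row totals, the median of all rows moved to 0.95, all 46 members stood above 0 and 43 were 1.5-fold higher, as were 77.1% of all rows. Relative to the median of all rows, 33 members were higher and 13 lower with TMM, and 34 and 12 with totals.

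**Figure D1:**
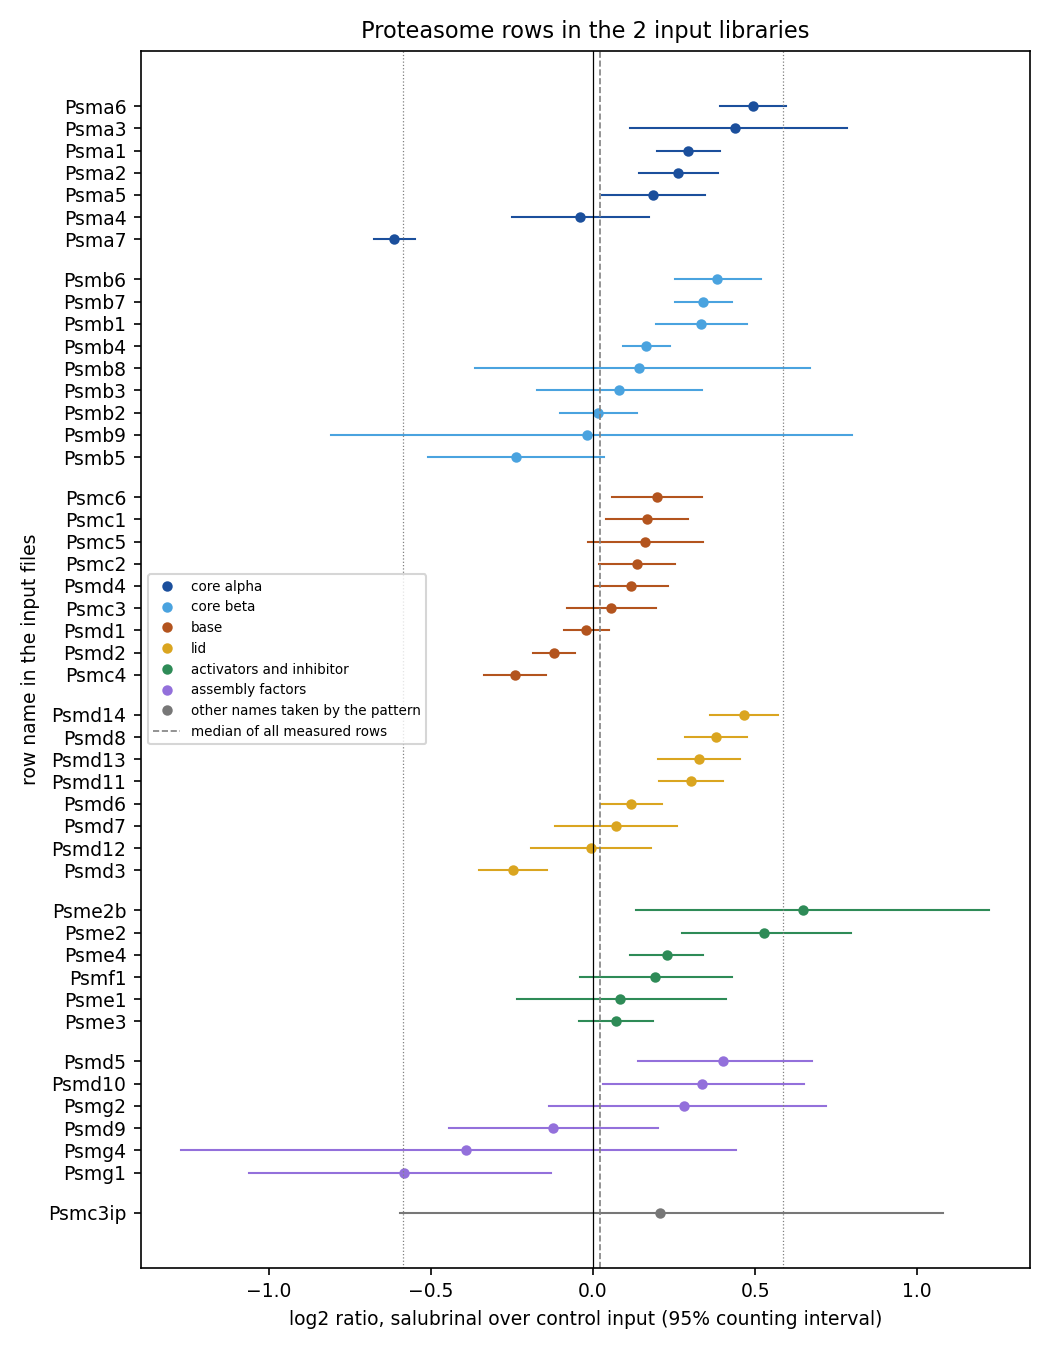
Log2 ratio of TMM-scaled counts, salubrinal over control input, for the 46 proteasome rows with 50 counts or more, by role; points are ratios and bars 95% counting intervals from 1 library per treatment. The dashed line is the median of all measured rows (0.023) and the dotted lines mark 1.5-fold; most rows lie between 0 and 0.5, and Psma7 and Psmg1 lie near -0.6.

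The alpha subunits form the outer rings of the core. Psma6 stood at 182 CPM with salubrinal and 129 CPM without. Its log2 ratio of 0.49 (interval 0.39 to 0.60) was the highest of the group. Psma3 had 17.2 and 12.6 CPM (0.44, 0.11 to 0.78), from 244 and 110 counts. Psma1 had 178 and 145 CPM (0.29, 0.20 to 0.39). These rows were all higher with salubrinal, by 1.2- to 1.4-fold. Psma2 (114 and 95.1 CPM) and Psma5 (65.6 and 57.6 CPM) had log2 ratios of 0.26 (0.14 to 0.39) and 0.19 (0.028 to 0.35), and Psma4 (34.3 and 35.2 CPM) had one of -0.039 (-0.25 to 0.17).

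Psma7 stood apart from the other alpha subunits and from every other member with 200 counts or more, none of whose intervals met its own. Its level was 288 CPM with salubrinal and 440 CPM without, from 4082 and 3830 counts. The log2 ratio was -0.61 (-0.68 to -0.55), and 11.2% of all rows had a lower one. Its interval did not meet that of any other alpha row, of which the next lowest, Psma4, ran from -0.25 to 0.17. Because Psma7 held so many counts, the summed alpha counts gave -0.058 with it and 0.32 (0.26 to 0.37) without it, a choice made after its value was seen, while the median of the 7 rows was 0.26. Scaled by totals, Psma7 turned to 0.33, still below the 0.95 of all rows. Psma8, the testis form of an alpha subunit, had 0 counts in both inputs.

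The beta subunits include the cutting sites, which in most cells are Psmb5 (chymotrypsin-like), Psmb6 (caspase-like) and Psmb7 (trypsin-like). Psmb6 stood at 102 CPM with salubrinal and 78.4 CPM without, or 0.38 (0.25 to 0.52). Psmb7 had 234 and 185 CPM, or 0.34 (0.25 to 0.43). Psmb5 went the other way, with 19.2 and 22.6 CPM and a ratio of -0.24 (-0.51 to 0.033). The intervals of Psmb6 and Psmb7 overlap each other and neither meets that of Psmb5, so the 3 catalytic rows did not share 1 common ratio within counting error.

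Interferon replaces those subunits by Psmb8, Psmb9 and Psmb10, which form the immunoproteasome. Here these rows were thinly counted. Psmb8 had 92 and 51 counts (6.48 and 5.86 CPM, log2 ratio 0.14, -0.36 to 0.67). Psmb9 had 37 and 23 counts (2.61 and 2.64 CPM, -0.018, -0.81 to 0.80). Psmb10 had 15 and 24 counts, below the minimum of 50, at 1.06 and 2.76 CPM (-1.25, -2.42 to -0.39), the only one of the 3 whose interval lay below 0. At this depth no difference between treatments was detectable for Psmb8 or Psmb9. Psmb11, the form of the thymus cortex, had 0 counts in both inputs.

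Of the non-catalytic beta rows, Psmb1 had 89.7 CPM with salubrinal and 71.2 CPM without (0.33, 0.19 to 0.47), and Psmb4, the most counted, 312 and 279 CPM (0.16, 0.092 to 0.24). Psmb3 (25.0 and 23.7 CPM) and Psmb2 (108 and 107 CPM) stood at 0.080 (-0.17 to 0.34) and 0.016 (-0.10 to 0.14). Over the 9 measured beta rows the median was 0.14, with 7 above and 2 below 0.

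The base holds the ring of ATPases, Psmc1 to Psmc6, and the large scaffold subunits Psmd1 and Psmd2. It had the narrowest spread of the role groups, with log2 ratios from -0.24 to 0.20, and also the most counts (19234 and 11886). Psmc6 stood highest at 87.3 and 76.1 CPM (0.20, 0.060 to 0.34), then Psmc1 at 104 and 92.7 CPM (0.17, 0.041 to 0.29). Psmc5 (51.6 and 46.2 CPM), Psmc2 (117 and 106 CPM) and Psmc3 (83.8 and 80.6 CPM) had log2 ratios of 0.16 (-0.016 to 0.34), 0.14 (0.018 to 0.25) and 0.056 (-0.079 to 0.19). Psmc4 was the exception among the ATPases, with 147 CPM under salubrinal and 173 CPM in control cells (-0.24, -0.34 to -0.14). Its interval met none of the other ATPases' intervals.

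Psmd2, which docks ubiquitin shuttles, had 337 and 366 CPM (-0.12, -0.19 to -0.056). Psmd1 had 307 and 312 CPM (-0.021, -0.091 to 0.048). The ubiquitin receptor Psmd4 had 121 and 111 CPM (0.12, 0.0018 to 0.23). Since Psmd2, Psmd1 and Psmc4 hold many counts, the summed base counts gave -0.010 (-0.043 to 0.023) while the median of the 9 rows was 0.12, so median and sum differ in sign.

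The lid carries Psmd14, the enzyme that cuts ubiquitin from the substrate, and it stood highest there. Its level was 168 CPM with salubrinal and 121 CPM without, or 0.47 on the log2 scale (0.36 to 0.57). Psmd7, the inactive partner of Psmd14, had 45.1 and 42.9 CPM (0.070, -0.12 to 0.26), and its interval lies below that of Psmd14. Psmd8 had 198 and 152 CPM (0.38, 0.28 to 0.47) and Psmd13 had 108 and 86.3 CPM (0.33, 0.20 to 0.45). Psmd11, a lid scaffold subunit, had 181 and 147 CPM (0.30, 0.20 to 0.40).

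Lower in the lid were Psmd6 (181 and 167 CPM, log2 ratio 0.12) and Psmd12 (636 and 392 counts, -0.0066, -0.19 to 0.18). Psmd3 had the lowest ratio of the lid, with 125 CPM under salubrinal and 148 CPM without (-0.25, -0.35 to -0.14). Its interval met that of Psmd12 alone among the lid rows. Of the 8 lid rows, 5 had an interval above 0 and 1 had one below. Among all rows with 200 counts or more, 31.9 and 25.7% did.

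**Figure D2:**
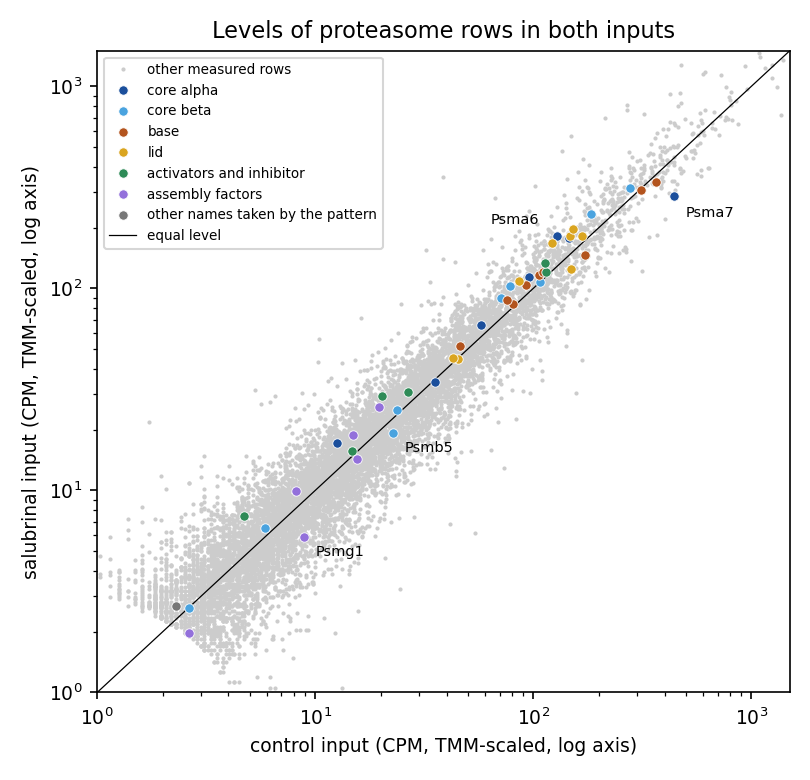
Level of each row in the control input (x) and in the salubrinal input (y), in TMM-scaled CPM on log axes that leave out rows beyond their ends; proteasome rows are coloured by role over the other rows with 50 counts or more (grey), and the line marks an equal level. Proteasome rows follow the line, with Psma7 (440 CPM in control, 288 CPM with salubrinal) visibly below it and Psma6 (129 and 182 CPM) above.

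Activators cap the core in place of the base and lid. All 6 activator and inhibitor rows were above 0, with a median of 0.21. The interval lay above 0 for 3 of them, beside 25.1% of all rows with 50 counts or more. Psme1 and Psme2 encode the interferon-induced PA28 activator. Psme2 stood at 29.2 CPM with salubrinal and 20.2 CPM without (0.53, 0.27 to 0.80), the highest ratio of the members with 200 counts or more. Its partner Psme1 had 15.7 and 14.8 CPM (0.084, -0.23 to 0.41), an interval that overlaps that of Psme2. Psme2b, a copy of Psme2 in the mouse annotation with no human symbol of the same letters, had 106 and 41 counts (0.65, 0.13 to 1.22), and reads of near-identical copies may be placed on either row.

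The nuclear activator Psme3 had 120 and 114 CPM (0.070, -0.043 to 0.18). Psme4, the large single-chain activator PA200, had 133 and 114 CPM (0.23, 0.12 to 0.34). Psmf1, which encodes the regulator PI31, described as an inhibitor in vitro, had 30.6 and 26.8 CPM (0.19, -0.040 to 0.43). Apart from the Psme2 rows these were at most 1.2-fold higher with salubrinal.

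By interquartile range (0.65 on the log2 scale) the assembly factors were the most scattered role group, with 3 of 6 measured rows on each side of 0. They also held the fewest counts, 1091 with salubrinal and 607 without, against 19234 and 11886 for the base. How far counting error sets this scatter was not tested. Psmd5, a chaperone of the base, had 26.0 CPM with salubrinal and 19.6 CPM without (0.40, 0.14 to 0.67). Psmd10 (gankyrin), another base chaperone, had 18.9 and 14.9 CPM (0.34, 0.031 to 0.65). The third base chaperone, Psmd9, had 14.2 and 15.5 CPM (-0.12, -0.44 to 0.20). Each of these intervals overlaps the others, which does not settle whether the 3 base chaperones differ, and that was not tested.

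Psmg1 and Psmg2 encode partners of the dimer that builds the alpha ring. Psmg1 had 83 and 77 counts (5.85 and 8.84 CPM), a log2 ratio of -0.58 (-1.06 to -0.13) that lies just inside 1.5-fold. Psmg2 had 141 and 71 counts (9.93 and 8.15 CPM, 0.28, -0.14 to 0.72), and the intervals of the partners overlap narrowly. The other pair, Psmg3 and Psmg4, was near the limit of counting. Psmg4 had 28 and 23 counts (-0.39, -1.27 to 0.44) and Psmg3 had 23 and 14, under the minimum. Psmc3ip, the row outside the proteasome, had 38 and 20 counts (0.21, -0.60 to 1.08).

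The interquartile range of the members was narrower than that of all rows, which is given as a description without a test. Among rows with 200 counts or more, the interquartile range of the log2 ratio was 0.28 over 40 members and 0.55 over all 6851 rows. Among rows with 1000 counts or more, where counting error is smaller, it was 0.25 over 29 members and 0.49 over 2302 rows. The members still differed from each other by more than counting error. The summed counts of the 46 rows gave a log2 ratio of 0.087 (0.069 to 0.11). The intervals of 16 members lay above that value, those of 7 below it (Psma7, Psmb5, Psmc4, Psmd1, Psmd2, Psmd3 and Psmg1), and those of 23 held it. Over all 10614 rows with 50 counts or more, 25.1% had an interval wholly above 0 and 23.0% wholly below 0. Intervals that leave out a common value were thus not particular to the members.

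**Figure D3:**
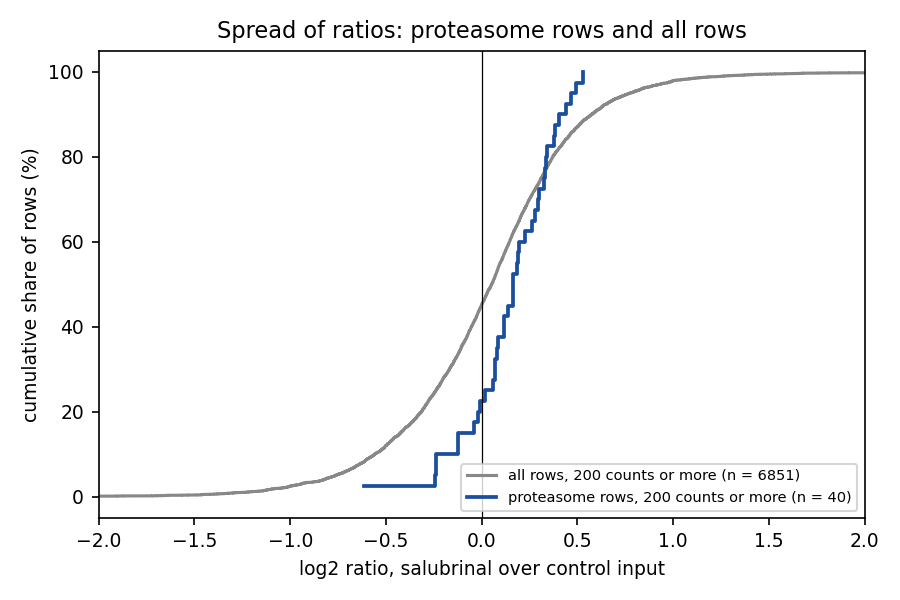
Cumulative share of rows (%) by log2 ratio of TMM-scaled counts, salubrinal over control input, for the 40 proteasome rows and for all 6851 rows with 200 counts or more. The proteasome curve is steeper, with an interquartile range of 0.28 against 0.55, and its single step near -0.6 is Psma7; the x axis is cut at -2 and 2.

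Proteins that work with the proteasome but lie outside the name pattern had a median log2 ratio of 0.23 over 12 measured rows. Of these, 1 row was 1.5-fold higher and 1 lower, beside 11.0 and 12.1% of all rows. Akirin2, which brings proteasomes into the nucleus, had 17.8 CPM with salubrinal and 11.5 CPM without (0.63, 0.29 to 0.98), and Txnl1, a thioredoxin bound to the cap, 55.5 and 38.6 CPM (0.52). The core maturation factor Pomp had 75.5 and 59.2 CPM (0.35, 0.20 to 0.50). Adrm1, the cap's ubiquitin receptor RPN13, was lowest at 22.5 and 39.5 CPM (-0.81, -1.04 to -0.59). The deubiquitinase Uchl5, which Adrm1 anchors to the cap, had 35.9 and 37.9 CPM (-0.079, -0.28 to 0.12). The subunit Sem1 had 43.0 and 39.6 CPM (0.12, -0.075 to 0.31).

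Ubiquitin and its activating and conjugating enzymes had a median of 0.26 over 17 rows. Of these, 1 was 1.5-fold higher and 2 were lower, near the 11.0 and 12.1% of all rows. The polyubiquitin gene Ubb had 352 CPM with salubrinal and 311 CPM without (0.18, 0.11 to 0.25). Among rows with 200 counts or more, the conjugating enzymes Ube2d3 (0.48) and Ube2c (0.36) were highest. Ube2s (-0.83, -0.98 to -0.68) and Cdc34 (-0.51) were lowest, and the main activating enzyme Uba1 stood at -0.18. The other rows past 1.5-fold were thinly counted, Ube2d2a with 123 and 37 counts (just under 2-fold higher) and Ube2g2 with 61 and 62 (-0.71). Ubiquitin shuttle receptors and the segregase p97 with its cofactors had a median of 0.10 over 14 rows. None was past 1.5-fold, where 11.0% of all rows were higher and 12.1% lower. The p97 row Vcp had 636 and 570 CPM (0.16), its cofactor Ufd1 and the shuttle Rad23b were highest at 0.52 and 0.33, and the shuttle Ddi2 stood at -0.50.

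The list around NRF1 had a median of 0.019 over 13 rows. Of these, 2 rows were 1.5-fold higher and 2 lower, beside 11.0 and 12.1% of all rows. Nfe2l1 itself had 295 CPM with salubrinal and 230 CPM without (0.36, 0.28 to 0.43). Of the proteins that process NRF1, the protease Ddi2 had 20.4 and 29.0 CPM (-0.50, -0.76 to -0.26) and the glycanase Ngly1 27.3 and 21.8 CPM (0.32, 0.067 to 0.58). Nfe2l2, the related antioxidant regulator, stood at 0.39, and among rows with 200 counts or more the repressor Bach1 was highest at 0.80 and Keap1 and Foxm1 were lowest at -0.75 and -0.56. The remaining rows past 1.5-fold were Nfyb (130 and 52 counts, 0.60) and Maff (33 and 34 counts, -0.71).

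Class I antigen processing, which uses peptides cut by the proteasome, had 6 measured rows of 11 with a median of -0.10. Of these, 0 were 1.5-fold higher and 1 (Tap2) was lower, beside 11.0 and 12.1% of all rows. Among those with 200 counts or more, the trimming peptidase Erap1 (0.34) and the chaperone Pdia3 (0.25) were highest, and the chaperones Canx (0.17) and Calr (-0.54, -0.60 to -0.48) lowest. The peptide transporter rows Tap1 (50 and 40 counts) and Tap2 (39 and 40 counts) were as thinly counted as the immunoproteasome rows, with ratios of -0.37 (-1.01 to 0.25) and -0.71 (-1.42 to -0.068). Genes of ER-associated degradation, which delivers misfolded secretory proteins to the proteasome, had a median of 0.26 over 8 rows. At least 2-fold higher were 2 of them, beside 2.75% of all rows. Herpud1 had 83.7 CPM with salubrinal and 24.7 CPM without (1.75, 1.55 to 1.98) and Edem1 90.2 and 38.5 CPM (1.23, 1.05 to 1.41). Os9, a lectin that recognises misfolded proteins, stood at 0.11 (-0.087 to 0.31). The highest ratio of a proteasome member was 0.65.

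**Figure D4:**
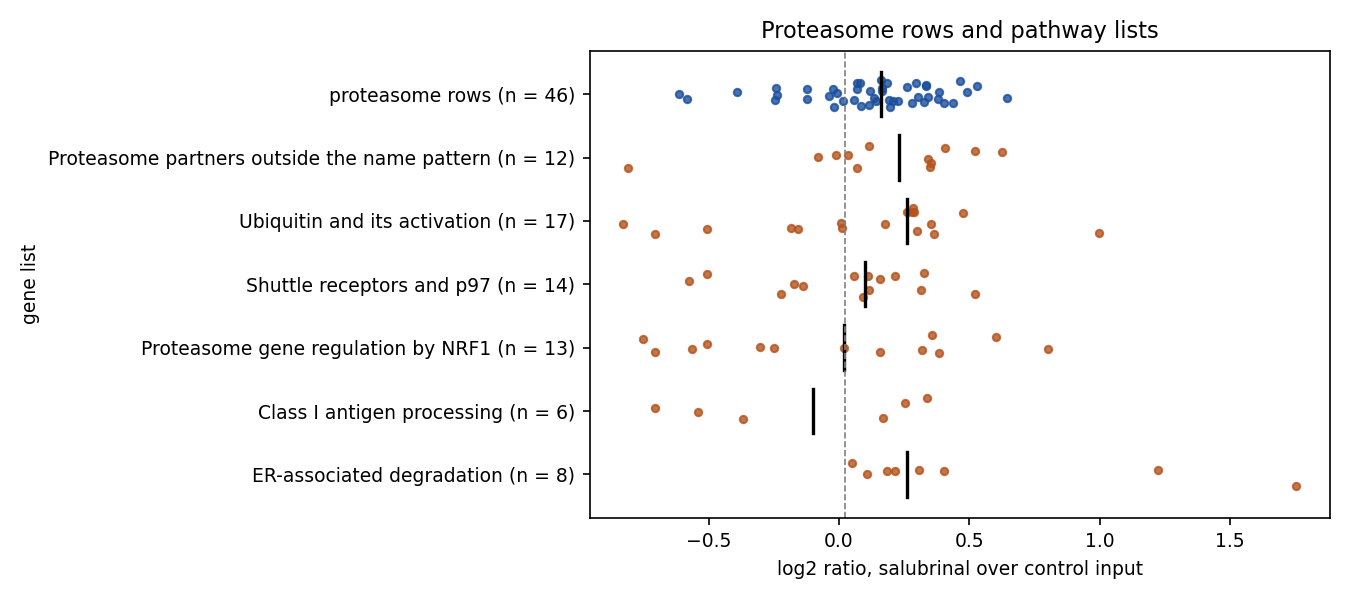
Log2 ratio of TMM-scaled counts, salubrinal over control input, for the 46 proteasome rows (blue) and for measured rows of 6 lists of the ubiquitin-proteasome pathway (brown-orange); points are rows, shifted vertically for legibility, black bars are medians and the dashed line is the median of all measured rows (0.023). Herpud1 (1.75) and Edem1 (1.23) of ER-associated degradation lie to the right of every proteasome row.

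The human promoters were searched for 3 motifs on both strands: TGACNNNGC, the core of the antioxidant response element that NRF1 and its relatives bind, CCAAT, the box bound by NF-Y, and TGATGNAAT, a form of the element bound by ATF4 with C/EBP factors. RefSeq promoters (build GRCh38.p14, 250 bases before to 50 after the first start listed for a gene) matched 43 of the 50 names. Psma7, Psmb1, Psmb6, Psmb7, Psmd4, Psme2b and Psmg3 had no match and were not searched. They include the measured members with the lowest ratio (Psma7, -0.61) and the highest (Psme2b, 0.65). The first motif was in 13 of 43 (30.2%), beside 13.6% of all 27305 promoters and 14.3% of those of protein-coding genes. CCAAT was in 20 of 43 (46.5%, beside 35.7 and 36.4%), and TGATGNAAT in 0 of 43 (beside 1.02 and 0.625%). A match is a description of the letters in the window and not a shown binding site.

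Among measured members whose promoter was searched, those with the TGACNNNGC motif had a median log2 ratio of -0.0066 (13 rows). Those without it had one of 0.17 (27 rows). Those with and without CCAAT had medians of 0.12 (19 rows) and 0.17 (21 rows). The promoters of PSMD3, PSMD5, PSME4 and PSMD14 are printed to show what these matches look like. Their rows had log2 ratios of -0.25, 0.40, 0.23 and 0.47, in that order. Each is the 150 bases before the gene's start, 5′ to 3′ on the gene's strand, with motif matches in capitals. PSMD3, the lowest lid member, holds TGACNNNGC on its own strand 37 bases before the start, with another match after the start that is not printed (chr17:39980657-39980806, plus strand). PSMD5, the highest assembly factor, holds it 134 bases before the start (chr9:120842923-120843072, minus strand), and PSME4 holds it 34 bases before the start on the opposite strand (chr2:53970994-53971143, minus strand). PSMD14, the highest lid member, has a pair of overlapping CCAAT matches, 1 on each strand (chr2:161308275-161308424, plus strand).
PSMD3: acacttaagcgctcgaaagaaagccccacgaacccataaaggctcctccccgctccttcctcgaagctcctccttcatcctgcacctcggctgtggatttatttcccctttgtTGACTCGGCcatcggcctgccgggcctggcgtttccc
PSMD5: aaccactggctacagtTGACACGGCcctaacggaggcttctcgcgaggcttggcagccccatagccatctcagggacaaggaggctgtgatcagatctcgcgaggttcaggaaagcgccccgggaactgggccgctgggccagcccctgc
PSME4: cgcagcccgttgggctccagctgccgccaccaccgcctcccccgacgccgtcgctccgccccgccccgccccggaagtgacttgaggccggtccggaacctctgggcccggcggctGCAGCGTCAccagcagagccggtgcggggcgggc
PSMD14: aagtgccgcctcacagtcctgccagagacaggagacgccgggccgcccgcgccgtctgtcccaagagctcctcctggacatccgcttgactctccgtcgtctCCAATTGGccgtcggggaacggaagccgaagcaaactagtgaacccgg

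RefSeq lists a human gene for 49 of the 50 names, spread over 17 chromosomes. Chromosomes 14 and 17 hold 8 each. The 7 measured members of chromosome 14 had a median log2 ratio of 0.20, from Psmb5 at -0.24 to Psme2 at 0.53, and the 8 of chromosome 17 one of 0.12, from Psmd3 at -0.25 to Psmb6 at 0.38. Only PSMB5 and PSMB11 follow each other with no protein-coding gene between them, and PSMB11 had no counts.

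The gradient fraction files, whose rows carry human symbols, held too few proteasome counts for a comparison. Over the 24 files the 49 PSM rows had 195 counts in all, or 0.0668% of the 291952 counts outside ribosomal RNA, with 0 to 26 counts per file. The files themselves held 1120 to 23722 such counts each. No count fell on 20 of the rows, among them PSMA6, PSMB6, PSMD14 and PSMD8. The 6 rows with 10 or more counts were PSMC3IP with 47, PSMG4 with 33, PSMG2 with 19, PSMD6 with 14, and PSMA3 and PSMG3 with 11 each.

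PSMA7 had 6 counts over all 24 files, 1 in salubrinal and 5 in control files, so its direction could not be followed there. In each of the 4 fractions 0 PSM rows passed edgeR's low-count filter, so none was tested there. Of the 225, 234, 213 and 241 rows that did pass in 40S, 60S, 80S and polysome, 8.00, 9.83, 12.7 and 3.73% were called at an adjusted p under 0.05. Without the filter 12 to 19 PSM rows entered each fit and 0 passed with edgeR or DESeq2. Hardly any other row did either: edgeR called 1 of 6021 rows in 40S (0.0166%) and 0 in the other fractions (0.00%), and DESeq2 called 0 in all 4, so this count says nothing about the members. With edgeR 1 row, PSMG4 in 60S, had an unadjusted p under 0.05 there (Benjamini-Hochberg adjusted p = 0.624), and with DESeq2 0 rows did.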

How the data were processed

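The deposited files give read counts per gene row, which the authors did not normalize. Build hg19 and, in no stated order, HTSeq 0.5.3p3, STAR, FastQC 0.11.5, DESeq and SAMtools 0.1.19.24 are named in the submitters' processing notes. A human build does not account for the mouse names of the input rows. No source used here states the strand setting. Library sizes and tests left out rows without a gene, which held 92.9 and 94.1% of counts in the inputs.

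Members and lists were chosen with earlier results of these data known. Roles follow textbook knowledge. Input ratios are log2 ratios of TMM-scaled counts (edgeR 4.0.16 in R 4.3.3, prior count 2) over rows with at least 50 counts in both inputs together. Given in full were the 3 highest and lowest members per role with at least 200 counts, the catalytic, interferon-induced and tissue forms, and the 2 highest and lowest of each list; a few list rows that this rule names are not reported here, and other rows named in the lists were chosen after their values were seen, for their role. Intervals are exact conditional binomial (Clopper-Pearson) at 95%. With 1 library per treatment, intervals cover counting error only. Reads carry no molecular identifiers, so copies of 1 molecule may be counted as separate reads and the intervals may be too narrow. Fractions were fitted with edgeR's quasi-likelihood test (filterByExpr, TMM, Benjamini-Hochberg threshold 0.05), with DESeq2 1.42.0 as an alternative; the labels do not tie replicates to separate cultures, so the spread behind a p-value may be technical. Both scripts were tested on simulated data. Alternatives were other scalings, prior counts, minimum counts and member sets, and for fractions another tool, no filter, a replicate block, rows without ribosomal RNA and leaving out each replicate. The member sets without Psma7 and without Psme2b and Psmc3ip were added after the data were seen.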

Additional observations from a re-analysis of the deposited data

How the results depend on the processing

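The direction of the member median, and its position above the median of all rows, held under every alternative run. Scaling by gene-row totals moved the median log2 ratio to 1.09 for all members, 1.11 for the core, 1.06 for base and lid and 1.15 for activators and assembly factors, put 43 members past 1.5-fold in place of 2, and reversed Psma7 to 0.33, all beside a median of all rows at 0.95. Relative to the median of all rows, the member median of 0.14 became 0.11 with at least 200 counts and 0.12 with at least 1 count, and that of base and lid became 0.066 with at least 200 counts. The core median itself, not relative to all rows, became 0.22 with at least 200 counts, which is 0.17 relative to them. The count of 2 members past 1.5-fold became 1 with a prior count of 10, with at least 200 counts, without Psma7, and without Psme2b and Psmc3ip, and 3 with a prior count of 0.5, at least 10 counts or at least 1 count. RLE, upper-quartile scaling, TMM without mitochondrial rows and the top row, and the other prior counts and minimums left each measured member's ratio within its counting interval. In the fractions 0 PSM rows were called with the replicate block or under any other alternative. Only the fits without a filter and with DESeq2 tested any, since none passed the filter elsewhere. Within each fraction, same-numbered salubrinal and control libraries were correlated in their deviations from group means. In 40S these correlations ran from -0.35 to 0.40. In 60S, 80S and polysome they were -0.026 to 0.14 for replicate 1 and 0.34 to 0.54 for replicates 2 and 3. These values do not settle whether the numbers pair samples. The labels state no pairing, so the main fits used none and the replicate block was an alternative. The 40S control replicates 1 and 2 held 5769 and 21307 counts outside ribosomal RNA, while those of 60S held 21922 and 5805. Elsewhere these counts were close between fractions for the same treatment and number. Whether the numbers of the 40S controls are exchanged was not tested. With 1 input library per treatment, the spread between cultures is unknown.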
